A study of Mus musculus with 4 samples.

Results

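The fibroblast growth factor (FGF) genes described here are 10 of the 22609 gene symbols counted in each library. They are the secreted ligands Fgf1, Fgf2, Fgf9 and Fgf18, the receptors Fgfr1, Fgfr2 and Fgfr3, and the output and feedback genes Spry2, Spry4 and Etv5. They were chosen by symbol and by role, with earlier results of these data known. RNA-Seq was performed on 4 libraries of mouse hippocampus, 2 labelled FLOX+GCI and 2 labelled FBN-ARO-KO+GCI. Every mouse was a female of 3 to 5 months that had been ovariectomized 1 week earlier and then underwent global cerebral ischemia (GCI), which was 20 min of occlusion of both common carotid arteries with reperfusion for 24 h. The FBN-ARO-KO genotype carries a Cre/LoxP deletion of Cyp19a1, the gene for the estrogen-synthesizing enzyme aromatase, with Cre driven by the CaMKIIα promoter, which is active in excitatory neurons of the forebrain. The sequenced tissue also holds glia, vessels and inhibitory neurons, in which this promoter is not active. FLOX mice are the controls. No uninjured library was analysed here, so each value describes the tissue after ischemia and the comparison is between genotypes. The labels do not say whether the libraries of a group came from separate mice, and the p-values then measure only the spread between these libraries.

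FGF ligands bind receptor tyrosine kinases at the cell surface together with heparan sulfate. The activated receptor recruits docking and adaptor proteins, which switch on RAS and the ERK kinases. ERK signaling raises transcription of the ETS factors Etv4 and Etv5 and of inhibitors that act back on the same pathway, among them the Sprouty proteins, the Spred proteins and the phosphatase Dusp6. The RNA of these genes is therefore widely read as pathway output, although other receptors that use ERK also drive it. In the brain, Fgf1, Fgf2 and Fgf9 are made by neurons and glia, and Fgfr3 is typical of astrocytes. The study raised FGF2 from neurons as a signal to astrocytes, and the comparison here asks whether RNA of the ligands, their receptors and the output genes differed between the genotypes.

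The windows upstream of Spry2 and Etv5 are shown because the fold changes of these output genes had opposite signs in the comparison below. Each holds the 250 bases before the RefSeq start in build GRCm38.p6, 5′ to 3′ on the strand of the gene, and capitals mark matches on either strand to GGAA (the core of an ETS site), TGACG (the core of a cAMP response element) or CCAAT (the CCAAT box). The Spry2 window is chr14:105896820-105897069 on the minus strand, and the Etv5 window is chr16:22439571-22439820 on the minus strand, before the first of its 2 listed starts.
Spry2: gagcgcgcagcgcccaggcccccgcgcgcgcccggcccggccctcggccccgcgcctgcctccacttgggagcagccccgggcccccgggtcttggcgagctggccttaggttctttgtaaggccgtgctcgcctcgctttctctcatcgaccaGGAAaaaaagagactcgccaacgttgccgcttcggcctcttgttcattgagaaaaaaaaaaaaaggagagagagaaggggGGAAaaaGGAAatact
Etv5: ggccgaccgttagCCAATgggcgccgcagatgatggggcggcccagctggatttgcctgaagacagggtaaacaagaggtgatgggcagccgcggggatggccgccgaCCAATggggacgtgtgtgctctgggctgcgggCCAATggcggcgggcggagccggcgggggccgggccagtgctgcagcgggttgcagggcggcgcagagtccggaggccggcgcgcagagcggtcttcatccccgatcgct
The Spry2 window held 3 GGAA matches and no CCAAT, whereas the Etv5 window held 3 CCAAT matches and no GGAA. Neither held TGACG, and no matches overlapped. Among all 32851 windows of this length, 93.4% held GGAA, 33.8% held CCAAT and 17.8% held TGACG. The median number of GGAA matches per window was 3. GC content was 62.4% for Spry2 and 71.2% for Etv5, against a median of 52.4% over all windows. These matches describe letters in the window, and binding was not measured. A relation of the matches to the fold changes was not tested.

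Counts on genes totaled between 24333396 and 33076795 per library, and 3 counts, taken as the smallest level that can be shown, corresponded to between 0.0905 and 0.122 CPM (counts relative to library size), a limit that covers counting error only. Cyp19a1 had 4 and 1 counts in FLOX+GCI and 2 in each FBN-ARO-KO+GCI library, too few to check the deletion. Neuronal and astrocyte markers were high in all 4 libraries, with Snap25 at 2587 to 3312 CPM and Slc1a2 at 2988 to 3800 CPM. Gfap, an astrocyte filament gene, was at 396 and 900 CPM in FLOX+GCI and at 502 and 560 CPM in FBN-ARO-KO+GCI, so that both FBN-ARO-KO+GCI libraries lay between those of FLOX+GCI. The log2 difference between genotypes followed transcript GC content across 13964 genes, with a Spearman's rho of -0.55, and so did the log2 difference of FBN-ARO-KO+GCI replicate 2 from replicate 1 (rho -0.48). The rho was 0.10 within FLOX+GCI. These are correlations across genes, which are not independent replicates, and values corrected for GC content and length are given beside the log2 fold changes.

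Levels were compared between genes as CPM per kilobase of annotated exon (CPM per kb), averaged over the 4 libraries. The highest levels belonged to Fgfr1 at 23.6 CPM per kb, Spry2 at 22.6 and Fgfr3 at 21.8, followed by Fgf1 at 17.9 and Etv5 at 14.0. Each of these genes overlapped the next one in the range of its libraries. Fgfr2 stood apart below them at 6.76 CPM per kb (range 6.44 to 7.40), and Spry4 and Fgf9 followed at 4.45 and 4.25 CPM per kb with overlapping ranges. Fgf18 was lower again at 1.11 CPM per kb (range 0.991 to 1.18), and Fgf2 was lowest at 0.224 CPM per kb (range 0.135 to 0.352), with the range of each apart from its neighbors. The level of Fgf2 came from 6 to 21 reads per library, near the limit of what this depth can show. The order among the highest genes depends on the length used, and with the longest coding transcript Fgfr3 was at 35.6 CPM per kb and Spry2 at 22.6.

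**Figure D1:**
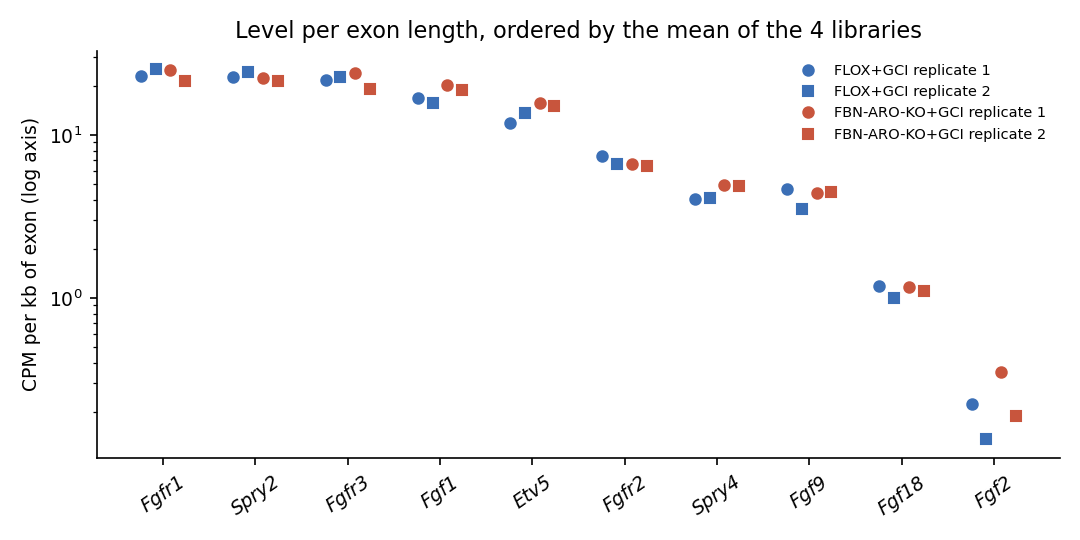
Level of each FGF gene in CPM per kb of exon on a log axis, 1 point per library, with blue for FLOX+GCI, red for FBN-ARO-KO+GCI, circles for replicate 1 and squares for replicate 2, ordered by the mean over the 4 libraries. Fgfr1, Spry2 and Fgfr3 lie together near 20 CPM per kb and Fgf2 lies lowest, between 0.135 and 0.352.

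Within each library the 3 receptors kept nearly fixed proportions. Fgfr1 made up 44.2% to 46.3% of their summed CPM per kb, Fgfr3 40.8% to 43.1% and Fgfr2 11.9% to 14.2%. Among the 4 ligands, Fgf1 made up 73.6% to 77.5%, Fgf9 16.7% to 20.3%, Fgf18 4.46% to 5.15% and Fgf2 0.665% to 1.34%. The share of Fgf18 was 5.15% and 4.88% in FLOX+GCI and 4.46% in both FBN-ARO-KO+GCI libraries, whereas for every other ligand and receptor the shares of the genotypes overlapped. Fgf18 had only 29 to 46 reads per library, and its own CPM overlapped between genotypes. A share also depends on the other ligands, and the CPM of Fgf1, the largest part of the sum, was higher in both FBN-ARO-KO+GCI libraries.

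The genotypes were compared over 14527 genes with edgeR's quasi-likelihood test, and p-values were adjusted over all of them by the Benjamini-Hochberg method. All 10 FGF genes passed the filter on low counts, and 0 of them had an adjusted p under 0.05, against a background of 2 of 14527 genes, or 0.0138%. By unadjusted p, 3 of the 10 fell under 0.05 (Fgf1, Spry4 and Etv5), all higher in FBN-ARO-KO+GCI, where 16.5% of all genes tested did in either direction and 8.72% did in that direction. DESeq2 gave an adjusted p to 6 of the 10, of which 0 passed (5.10% of all genes with an adjusted p), and its independent filtering left Fgf2, Fgf9, Fgf18 and Spry4 without one. By unadjusted p in DESeq2, 2 of the 10 fell under 0.05 (10.4% of all genes). The 2 libraries of one genotype lay entirely above or below those of the other for 4 of the 10, where 51.8% of all genes tested did so. Of these, 3 were higher (25.9% of all genes) and 1 was lower (25.8% of all genes). The median log2 fold change of the 10 genes (FBN-ARO-KO+GCI over FLOX+GCI) was 0.09, and that of all genes tested was -0.01.

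**Figure D2:**
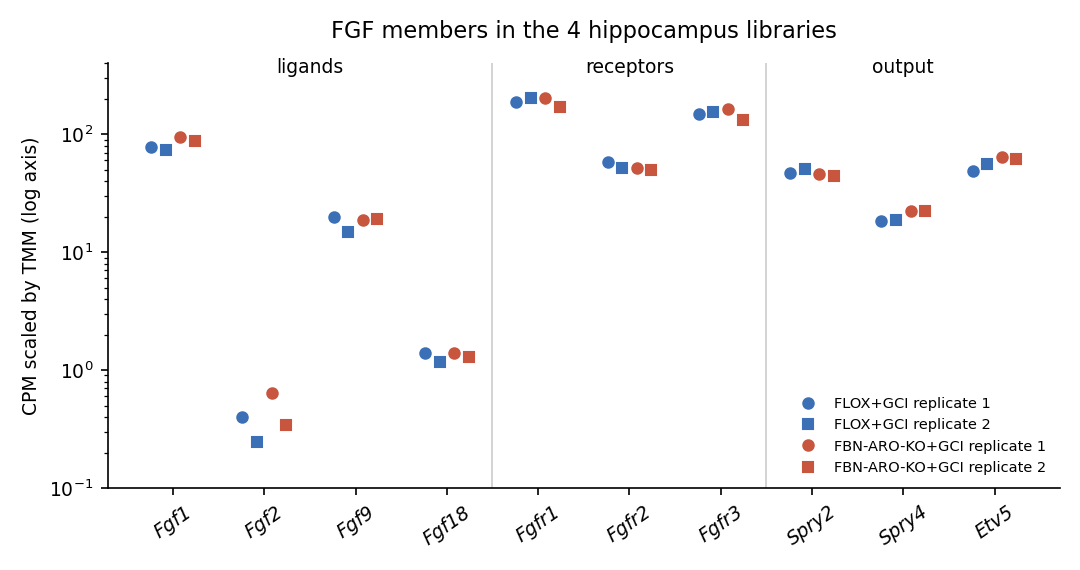
CPM of each FGF gene in each library on a log axis, grouped as ligands, receptors and output genes, with blue for FLOX+GCI, red for FBN-ARO-KO+GCI, circles for replicate 1 and squares for replicate 2. The libraries of the genotypes lie apart for Fgf1, Spry4 and Etv5 (higher in FBN-ARO-KO+GCI) and for Spry2 (lower), and they overlap for the other 6 genes.

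Among the ligands, Fgf1 encodes acidic FGF, which binds every FGF receptor. It was measured at 78.2 and 72.9 CPM in FLOX+GCI and at 94.4 and 87.0 CPM in FBN-ARO-KO+GCI, from 1797 to 3129 counts. Both FBN-ARO-KO+GCI libraries were above both FLOX+GCI libraries. The means were 75.6 ± 3.76 and 90.7 ± 5.24 CPM (SD, n = 2 each), and the log2 fold change was 0.26 (SE 0.083, 95% interval 0.07 to 0.46, unadjusted p = 0.0144, adjusted p = 0.248 by edgeR's quasi-likelihood test). The difference is 1.20-fold, and after correction for GC content and length the log2 fold change was 0.18 (adjusted p = 0.498 in edgeR). Its unadjusted p was above 0.05 without FLOX+GCI replicate 2 (0.0932) and without FBN-ARO-KO+GCI replicate 1 (0.0837). Fgf1 lies on chromosome 18 of mm9 from 38998327 to 39089058, minus strand, and shares no exon base with another gene in the annotation.

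Fgf2 encodes basic FGF. From its RNA-Seq the paper reported a marked rise of this transcript in FBN-ARO-KO+GCI hippocampus. It then reported more FGF2 protein in FBN-ARO-KO+GCI than in FLOX+GCI, by staining of hippocampal neurons and by Western blot of hippocampus. Estradiol lowered the neuronal protein in FBN-ARO-KO+GCI, and an antibody against FGFR3 raised GFAP and other astrocyte proteins. Those were protein values at a later time, whereas the counts here are RNA of the hippocampus at 24 h. In the counts used here, Fgf2 had 10 and 6 reads in FLOX+GCI and 21 and 10 reads in FBN-ARO-KO+GCI. The FBN-ARO-KO+GCI library with fewer reads, at 0.341 CPM, lay below the higher FLOX+GCI library at 0.399 CPM, so the genotypes overlapped. The other libraries were at 0.243 CPM in FLOX+GCI and 0.634 CPM in FBN-ARO-KO+GCI. The fit gave a log2 fold change of 0.61 with an SE of 0.55 and a 95% interval of -0.68 to 1.90 (adjusted p = 0.586 by edgeR's quasi-likelihood test), so that anything from 0.622-fold to 3.73-fold lay inside the interval and a difference was not detectable at this depth. Leaving out FLOX+GCI replicate 1 gave a log2 fold change of 1.01 and leaving out FLOX+GCI replicate 2 gave 0.30, so the size of this value rested on single libraries, and the correction for GC content and length gave 0.83. Without FBN-ARO-KO+GCI replicate 1, the library with 21 reads, Fgf2 fell below the filter and was not tested.

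The reads of Fgf2 cannot be fully separated from those of its neighbor Nudt6, a Nudix hydrolase gene on the opposite strand whose transcript is known as the FGF antisense RNA. In the GENCODE M1 annotation of mm9, Fgf2 lies on chromosome 3 from 37211441 to 37304299 on the plus strand and Nudt6 from 37303832 to 37319133 on the minus strand. The last annotated exon of the transcript Fgf2-001, exon 4 of 242 bases, lies wholly inside exon 5 of Nudt6-001. Over all transcripts, 297 of the 1802 exon bases of Fgf2 are shared with other counted genes, 242 of them with Nudt6. Whether the counting used strand is not stated, and if it did not, reads from the overlap are ambiguous or assigned to either gene. Nudt6 had 77 and 56 reads in FLOX+GCI and 85 and 65 reads in FBN-ARO-KO+GCI, with a log2 fold change of -0.16 (SE 0.258, adjusted p = 0.773 in edgeR) and a corrected value of -0.06, and its libraries overlapped between genotypes. Reads left out as ambiguous made up 0.411% to 0.446% of those uniquely aligned per library, and how many of them came from this locus was not analysed here.

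**Figure D3:**
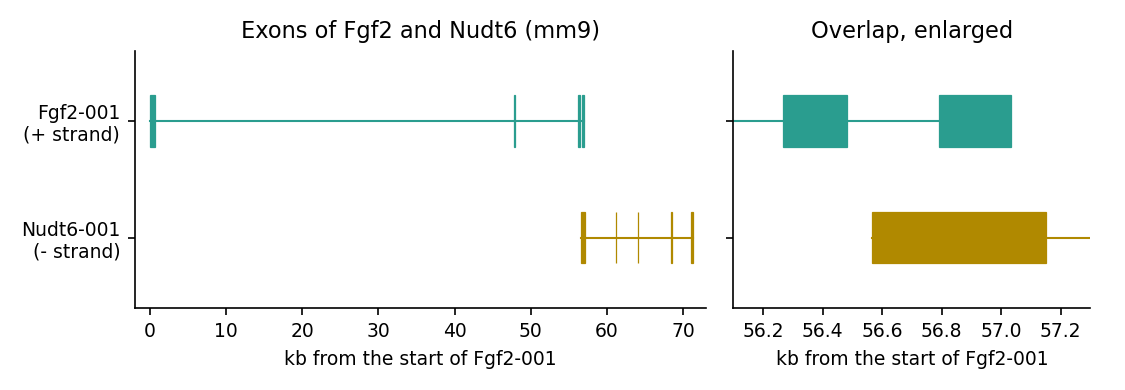
Map of the exons of the transcripts Fgf2-001 (plus strand) and Nudt6-001 (minus strand) in distance in kb from the first base of Fgf2-001, with exons as boxes and introns as lines, whole on the left and enlarged around the overlap on the right. Exon 4 of Fgf2-001, the last box of its row and 242 bases long, lies wholly within exon 5 of Nudt6-001.

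Fgf9, a ligand of Fgfr2 and Fgfr3 made largely by neurons, was measured at 19.8 and 15.0 CPM in FLOX+GCI and at 18.6 and 19.1 CPM in FBN-ARO-KO+GCI. Both FBN-ARO-KO+GCI libraries lay between those of FLOX+GCI. Fgf9 had a log2 fold change of 0.12 (SE 0.149, 95% interval -0.23 to 0.47, adjusted p = 0.701 in edgeR), and it was -0.10 after correction for GC content and length. Fgf9 had the lowest transcript GC content of the 10 genes, 39.8%. Fgf18, related to Fgf8 and Fgf17, was measured at 1.40 and 1.18 CPM in FLOX+GCI and at 1.39 and 1.30 CPM in FBN-ARO-KO+GCI, from 29 to 46 reads. Its genotypes overlapped and its log2 fold change was 0.06 (SE 0.298, 95% interval -0.64 to 0.76), with a corrected value of 0.23. Fgf9 lies on chromosome 14 of mm9 from 58689384 to 58731174, plus strand, and Fgf18 on chromosome 11 from 33017430 to 33047400, minus strand.

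The 3 receptors had log2 fold changes of -0.10 to -0.04, and the genotypes overlapped for each of them. Fgfr1, the FGF receptor typical of neurons, was measured at 186 and 203 CPM in FLOX+GCI and at 201 and 172 CPM in FBN-ARO-KO+GCI, from 4659 to 6676 counts. The log2 fold change of Fgfr1 was -0.06 (SE 0.096, 95% interval -0.28 to 0.16, adjusted p = 0.768 in edgeR). Fgfr3, the receptor that the study blocked with an antibody, was measured at 149 and 156 CPM in FLOX+GCI and at 165 and 132 CPM in FBN-ARO-KO+GCI. The FBN-ARO-KO+GCI libraries lay on either side of those of FLOX+GCI, and the log2 fold change was -0.04 (SE 0.110, 95% interval -0.30 to 0.22, adjusted p = 0.878 in edgeR). The interval covers 0.814-fold to 1.16-fold. By staining, the paper reported FGFR3 protein as weak in hippocampal astrocytes of FLOX+GCI and strong in those of FBN-ARO-KO+GCI. That was protein in 1 cell type at a later time, whereas the values here are RNA of the hippocampus at 24 h. Without FBN-ARO-KO+GCI replicate 2 the log2 fold change of Fgfr3 was 0.12, and without replicate 1 it was -0.22. From replicate 1 to replicate 2 of FBN-ARO-KO+GCI the log2 difference was -0.33 for Fgfr3 and -0.23 for Fgfr1. Both were larger than the difference between genotypes for any of these 3 receptors. Both have transcripts rich in GC, at 56.3% and 55.3%, and these replicates differed along GC content across all genes. The part of GC content in the receptor values was not tested. After the correction the log2 fold changes between genotypes were 0.05 for Fgfr3 and -0.00 for Fgfr1.

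Fgfr2, typical of oligodendrocytes and astrocytes in the adult brain, was measured at 57.7 and 51.3 CPM in FLOX+GCI and at 51.6 and 50.2 CPM in FBN-ARO-KO+GCI. The highest FBN-ARO-KO+GCI library passed the lowest FLOX+GCI library by a small margin. The log2 fold change was -0.10 (SE 0.089, 95% interval -0.31 to 0.11, adjusted p = 0.584 in edgeR), with a corrected value of -0.14. In the annotation of mm9, Fgfr1 lies on chromosome 8 from 26624126 to 26686186 on the plus strand and Fgfr3 on chromosome 5 from 34064373 to 34079716 on the plus strand. The entry of Fgfr2 on chromosome 7 runs from 137305965 to 140315033 on the minus strand, across many other genes, and shares 314 of its 7796 exon bases with Ctbp2. With the longest coding transcript as length, the receptor levels were 38.2 CPM per kb for Fgfr1, 35.6 for Fgfr3 and 11.9 for Fgfr2, in the same order.

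The output genes lay on both sides of 0. Etv5, an ETS factor raised by FGF and ERK signaling, was measured at 48.8 and 55.6 CPM in FLOX+GCI and at 64.4 and 61.7 CPM in FBN-ARO-KO+GCI, from 1222 to 2135 counts. Both FBN-ARO-KO+GCI libraries were above both FLOX+GCI libraries. The log2 fold change was 0.27 (SE 0.092, 95% interval 0.06 to 0.49, unadjusted p = 0.0200, adjusted p = 0.248 in edgeR), or 1.21-fold. The transcript GC content of Etv5 was 51.8%, near the middle of the range, and the corrected log2 fold change was also 0.27 (unadjusted p = 0.0109, adjusted p = 0.405 in edgeR). Leaving out 1 library at a time gave between 0.18 and 0.37, with an unadjusted p above 0.05 without FLOX+GCI replicate 1 (0.154) and without FBN-ARO-KO+GCI replicate 1 (0.0839).

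Spry4, an inhibitor of receptor signaling to RAS and ERK, was measured at 18.4 and 18.7 CPM in FLOX+GCI and at 22.5 and 22.2 CPM in FBN-ARO-KO+GCI, from 461 to 745 counts. The libraries of each genotype lay close together and the genotypes lay apart. Its log2 fold change was 0.27 (SE 0.103, 95% interval 0.02 to 0.51, unadjusted p = 0.0350, adjusted p = 0.274 in edgeR), or 1.20-fold, and it was between 0.25 and 0.28 when 1 library was left out, each time with an unadjusted p above 0.05 in edgeR. Its unadjusted p was also above 0.05 with DESeq2 (0.100), and in edgeR with library totals (0.0646) and with the replicate block (0.0554). The corrected log2 fold change was 0.24 (adjusted p = 0.471 in edgeR).

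Spry2, which had a higher level per kb than Spry4, was measured at 46.9 and 50.4 CPM in FLOX+GCI and at 46.2 and 44.5 CPM in FBN-ARO-KO+GCI. Both FBN-ARO-KO+GCI libraries were below both FLOX+GCI libraries, although the gap between the nearest libraries was smaller than the spread within either genotype. The log2 fold change was -0.10 (SE 0.085, 95% interval -0.30 to 0.10, adjusted p = 0.559 in edgeR) and the corrected value was -0.16 (adjusted p = 0.535 in edgeR). Its interval reaches up to 1.07-fold and those of Etv5 and Spry4 reach down to 1.04-fold and 1.02-fold. In mm9, Spry2 lies on chromosome 14 from 106291166 to 106296036, Spry4 on chromosome 18 from 38745922 to 38760922 and Etv5 on chromosome 16 from 22381382 to 22439792, all on the minus strand.

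Ratios within a library do not depend on library size. They were chosen after the values above were seen and are given with no test, and since Etv5 and Spry4 lay apart on the higher side and Spry2 on the lower side, the ratios to Spry2 had to lie apart as well. Etv5 over Spry2 was 1.04 and 1.10 in FLOX+GCI against 1.39 and 1.38 in FBN-ARO-KO+GCI. Spry4 over Spry2 was 0.392 and 0.371 in FLOX+GCI against 0.486 and 0.498 in FBN-ARO-KO+GCI. Etv5 over Spry4 was 2.65 and 2.97 in FLOX+GCI against 2.87 and 2.78 in FBN-ARO-KO+GCI, with overlapping genotypes.

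**Figure D4:**
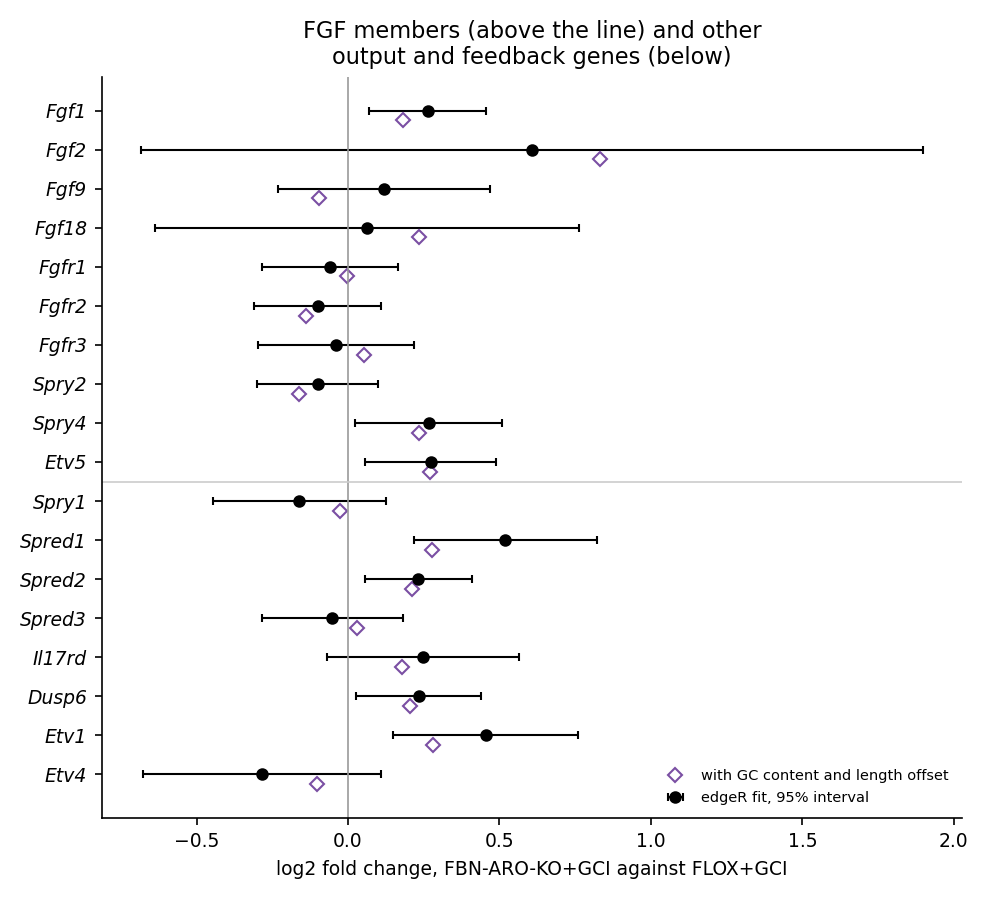
Log2 fold change (FBN-ARO-KO+GCI over FLOX+GCI) of the 10 FGF genes above the line and of 8 other output and feedback genes below it, with black points and bars for the value and 95% interval of edgeR's quasi-likelihood fit and open diamonds for the value corrected for GC content and length. Among the 10 genes, the intervals of Fgf1, Spry4 and Etv5 lie above 0, with no adjusted p under 0.05, and the interval of Fgf2 is the widest, from -0.68 to 1.90.

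Of 56 other genes of the FGF pathway, 43 passed the filter on low counts and 0 had an adjusted p under 0.05 in edgeR. By unadjusted p, 8 were higher in FBN-ARO-KO+GCI and 4 were lower, where 8.72% and 7.82% of all genes tested were. With the replicate number as a block 2 of the 43 passed after adjustment (Spred1 and Etv1), where 1.27% of all genes did, and 0 passed when the block was combined with the GC and length correction (0.282 and 0.301 as adjusted p in edgeR). Their median log2 fold change was 0.09, and 0.01 after correction for GC content and length. Among them, 9 were further output and feedback genes, of which 8 were tested, and 4 of those had an unadjusted p under 0.05, all higher in FBN-ARO-KO+GCI, beside the 8.72% of all genes above. The median log2 fold change of these 8 was 0.23, and 0.19 after correction.

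Spred1, an inhibitor of the RAS-ERK pathway, was measured at 76.5 and 88.2 CPM in FLOX+GCI and at 104 and 133 CPM in FBN-ARO-KO+GCI. The genotypes lay apart, with a log2 fold change of 0.52 (SE 0.129, unadjusted p = 0.00457, adjusted p = 0.238 in edgeR), and the corrected value was 0.28 (adjusted p = 0.458 in edgeR). With DESeq2 its adjusted p was 0.00611. Leaving out 1 library at a time gave a log2 fold change of Spred1 between 0.33 and 0.68. Etv1, an ETS factor of the same subfamily as Etv5, was measured at 49.2 and 57.5 CPM in FLOX+GCI and at 64.7 and 81.6 CPM in FBN-ARO-KO+GCI, with a log2 fold change of 0.46 (SE 0.130, adjusted p = 0.239 in edgeR, 0.0306 in DESeq2) and a corrected value of 0.28. Spred1 and Etv1 are the most GC-poor of the tested output and feedback genes, at 41.2% and 43.1%. Over all tested genes of at most 45% GC the median log2 fold change was 0.18. The part of GC content in the values of Spred1 and Etv1 was not tested.

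Dusp6, the ERK phosphatase, was measured at 59.7 and 66.2 CPM in FLOX+GCI and at 71.3 and 76.7 CPM in FBN-ARO-KO+GCI, with a log2 fold change of 0.23 (SE 0.088, unadjusted p = 0.0318, adjusted p = 0.269 in edgeR) and a corrected value of 0.20. Spred2 had a log2 fold change of 0.23 (unadjusted p = 0.0171, adjusted p = 0.248 in edgeR) and a corrected value of 0.21. For both the genotypes lay apart and the correction moved the value little. Il17rd, which encodes the FGF antagonist Sef, had a log2 fold change of 0.25 (unadjusted p = 0.108) and a corrected value of 0.18. The values were -0.16 for Spry1, -0.28 for Etv4 and -0.05 for Spred3, with adjusted p of 0.513, 0.411 and 0.810 in edgeR, and the corrected values were -0.03, -0.10 and 0.03. Spry3 had 0 counts in all 4 libraries.

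Among the other receptors and co-receptors, Fgfrl1, a receptor without a kinase domain, was measured at 20.8 and 25.8 CPM in FLOX+GCI and at 16.3 and 16.5 CPM in FBN-ARO-KO+GCI. The FBN-ARO-KO+GCI libraries were both lower, with a log2 fold change of -0.50 (SE 0.133, unadjusted p = 0.00627, adjusted p = 0.238 in edgeR). Leaving out 1 library at a time gave a log2 fold change of Fgfrl1 between -0.65 and -0.34, and the value corrected for GC content and length was -0.30. Kl, the Klotho co-receptor of hormone-like FGFs, was measured at 33.0 and 26.2 CPM in FLOX+GCI and at 31.8 and 31.3 CPM in FBN-ARO-KO+GCI (log2 fold change 0.09, corrected 0.03). Fgfr4 had 2 reads in each FLOX+GCI library and 11 and 2 reads in FBN-ARO-KO+GCI, and Klb had 4 to 6 reads per library, so both were below the filter and not tested.

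Of the remaining pathway genes, those with the smallest unadjusted p are named by rule. Fgf10, a ligand that signals mainly through an Fgfr2 isoform found in epithelia, had 459 and 398 reads in FLOX+GCI and 713 and 805 reads in FBN-ARO-KO+GCI, with a log2 fold change of 0.51 (SE 0.147, adjusted p = 0.241 in edgeR) and a corrected value of 0.30. Sos2, an exchange factor for RAS, had a log2 fold change of 0.27 and a corrected value of 0.11, and Ptpn11, which encodes the phosphatase SHP2, had 0.18 and a corrected value of 0.16. On the lower side, the docking protein gene Frs3 was measured at 18.4 and 18.8 CPM in FLOX+GCI and at 14.1 and 12.1 CPM in FBN-ARO-KO+GCI, with a log2 fold change of -0.50 (SE 0.127, adjusted p = 0.238 in edgeR) and a corrected value of -0.26. The syndecan gene Sdc3 had -0.25 and Map2k2, which encodes a kinase that activates ERK, had -0.29, and their corrected values were -0.10 and -0.07. Of the secreted ligands outside the 10 genes, 4 of 14 passed the filter.

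Transcript GC content moved with the difference between genotypes over all genes. The median log2 fold change was 0.18 for the 2978 genes of at most 45% GC, 0.06 for 3593 genes of 45% to 50%, -0.04 for 3693 genes of 50% to 55%, and -0.17 for 3700 genes above 55%. Against these medians, Spry4 and Etv5, at 50.8% and 51.8% GC, were at 0.27, Spry2, at 46.2% GC, was at -0.10, and Fgf1, at 47.2% GC, was at 0.26. Over the 10 genes the median was 0.09 before and 0.12 after the correction.

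**Figure D5:**
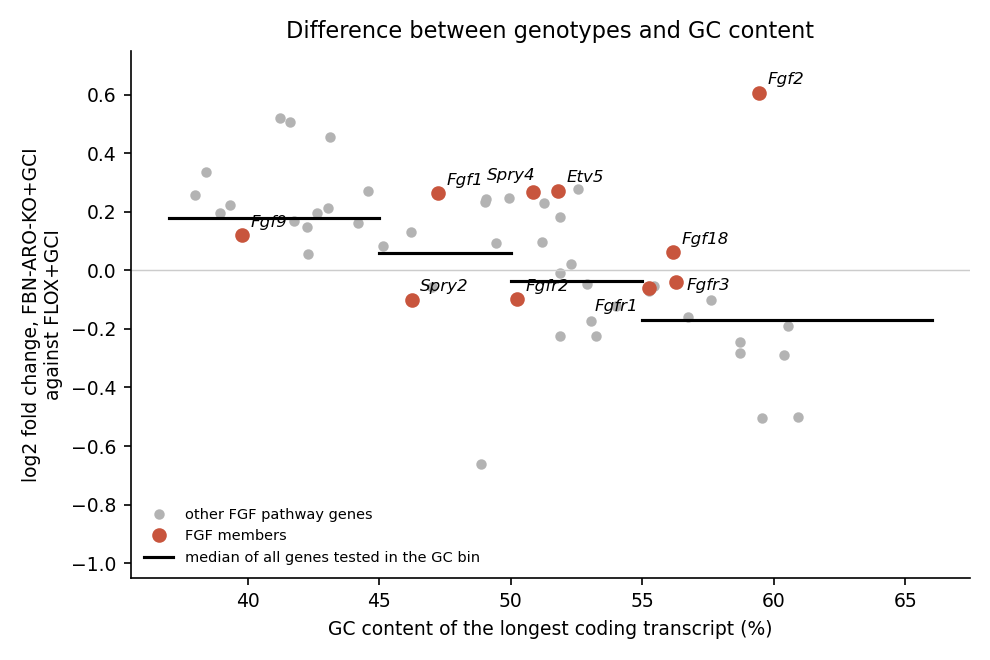
Log2 fold change between genotypes against transcript GC content in percent, for the 10 FGF genes in red and the other tested pathway genes in gray, with the median of all genes tested in each of 4 GC ranges as a line (the outer lines stand for all genes below 45% and above 55%). Pathway genes of low GC content lie mostly above 0 and those of high GC content mostly below, while Spry4 and Etv5 lie above the medians of their range and Spry2 lies below its own.

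In bulk tissue, fewer cells of a type and less RNA per cell cannot be told apart. Levels of vessel and meningeal markers differed between libraries. The endothelial and mural list had 8 of 8 genes below 0 (median log2 fold change -0.43), with a summed level of 273 and 191 CPM in FLOX+GCI and 210 and 156 CPM in FBN-ARO-KO+GCI, and the meningeal fibroblast list had 6 of 6 below 0 (median -1.02), with 353 and 183 CPM against 214 and 118 CPM. The summed astrocyte level was 6063 and 6161 CPM in FLOX+GCI and 6300 and 6966 CPM in FBN-ARO-KO+GCI, with 7 of 10 genes above 0. The oligodendrocyte list had 5 of 10 genes above 0, with 3751 and 4244 CPM against 4245 and 4376 CPM, and the neuron list 6 of 10, with 13196 and 13039 CPM against 13385 and 14175 CPM. The interneuron list had 3 of 6 genes above 0 (998 and 939 CPM against 908 and 915 CPM), and the microglia list 4 of 8 (448 and 423 CPM against 420 and 473 CPM). The choroid plexus list had 3 of 5 tested above 0 (65.4 and 50.9 CPM against 44.1 and 49.8 CPM). These were Kl, which alone held 26.2 to 33.0 CPM, and Folr1 and Clic6, each at most 1.47 CPM. Below 0 were Kcnj13 (log2 fold change -1.45) and Ttr (-0.98). Ttr was at 26.5 and 21.9 CPM in FLOX+GCI and at 8.93 and 15.6 CPM in FBN-ARO-KO+GCI. No marker in these lists had an adjusted p under 0.05 in edgeR, and 11 of the 63 tested, or 17.5%, had an unadjusted p under 0.05, near the 16.5% of all genes. With the replicate number as a block 7 of the 63 passed after adjustment, where 1.27% of all genes tested did. They were Cdh5, Ttr, Kcnj13, Col1a1, Col1a2, Slc6a13 and Igf2, named after their values were seen. With the block and the correction 0 of the 63 passed. The part of cell composition in the FGF values was not tested.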

How the data were processed

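The 4 hippocampus libraries were grouped by their labels. Per the labels and the study's methods, the authors sequenced 50 nt single-end reads, aligned them to mm9 with TopHat2 (version 2.0.8b in the submitters' processing notes), counted them with HTSeq and deposited raw counts per gene symbol. The annotation release, strand setting and treatment of overlapping genes are not given in the sources used here. Counters of unassigned reads (5 per library) were left out.

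Genotypes were compared with edgeR 4.0.16 in R 4.3.3 (quasi-likelihood test, TMM, filterByExpr with a minimum count of 10, two-sided, Benjamini-Hochberg adjustment over all genes tested at 0.05). With 2 libraries per group an exact permutation test of 1 gene cannot give a p under 0.333, so the fit shares its estimate of spread across genes. The SE is the size of the log2 fold change over the root of the F statistic. CPM is scaled by TMM. The correction for GC content and length was a natural spline (5 degrees of freedom for each covariate) of the log2 CPM of a library minus the mean of the gene (prior count 2), and it entered edgeR as an offset. Positions, exon lengths and GC content came from GENCODE M1 (NCBIM37, the build of mm9), which gave 1 locus for 21628 of the 22609 symbols. Promoter windows came from RefSeq tables of GRCm38.p6.

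No library was a duplicate of the other of its genotype (chi-square per degree of freedom 10.5 and 12.3). Alternatives were DESeq2 1.42.0, other scalings and filters, a replicate block, the correction, and each library left out. Procedures were tested on simulated data, with larger changes than those seen for the FGF genes and in genes of higher counts than Fgf2. The simulation therefore does not show how well changes as small as those here are found. Named genes were the 10 FGF genes, Nudt6, every listed output, feedback, receptor and co-receptor gene, and up to 3 others in each direction with the smallest unadjusted p and a mean of at least 10 counts. The genes and lists were chosen with earlier results of these data known, and the ratios, GC ranges, promoter windows and motifs were chosen after values were seen. Marker gene Map2 is listed under an older symbol.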

Additional observations from a re-analysis of the deposited data

How the results depend on the processing

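No FGF gene that was given an adjusted p passed 0.05 under the alternatives run on all 4 libraries. These were DESeq2, which gave an adjusted p to 6 of the 10, RLE size factors, library totals and every gene with at least 1 count. The others were the replicate block, the correction for GC content and length, and both together. Of the 10 genes, between 2 and 3 had an unadjusted p under 0.05. Among all genes, 1454 to 2538 of 14527 did in the edgeR alternatives with the filter on low counts. Without that filter 2642 of 17821 did, and in DESeq2 1859 of 17821. Without FBN-ARO-KO+GCI replicate 1 that gene was Fgfr3, on the lower side (-0.22, unadjusted p = 0.0431), and Fgf1, Spry4 and Etv5 were above 0.05. Over all genes, edgeR called 2, DESeq2 292, edgeR without the filter on low counts 5, the replicate block 184, the block with the correction 1, and leaving out 1 library between 0 and 193 (193 without FLOX+GCI replicate 1, 127 without FLOX+GCI replicate 2, and 0 without either FBN-ARO-KO+GCI library). A left-out library leaves 1 in its group, assumed to vary like the others. Library totals in place of TMM moved the unadjusted calls from 1267 higher and 1136 lower to 963 and 1471, with no FGF gene reversed. Of the 43 other pathway genes tested in edgeR, 0 passed in the main fit. With the replicate block 2 passed (Spred1, adjusted p = 0.0160, and Etv1, adjusted p = 0.0437, in edgeR), where 1.27% of all genes did. DESeq2 gave an adjusted p to 25 other pathway genes, of which 2 passed, where 5.10% of all genes with an adjusted p did. Deviations of same-numbered libraries correlated at 0.129 over 2 pairs, which does not show that the numbers pair libraries. In both genotypes, however, replicate 2 had lower summed vessel and meningeal markers than replicate 1. The endothelial and mural sum went from 273 to 191 CPM in FLOX+GCI and from 210 to 156 CPM in FBN-ARO-KO+GCI. The meningeal sum went from 353 to 183 CPM and from 214 to 118 CPM. With the longest transcript as length, 6 of the 10 genes kept their place in the order of levels.

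The log2 fold change reversed under the correction, without and with the replicate block, for Fgf9 (-0.095 and -0.090), Fgfr3 (0.054 and 0.049) and Spred3 (0.029 and 0.032). Leaving out 1 library gave ranges across 0 of -0.070 to 0.34 for Fgf9, -0.059 to 0.19 for Fgf18, -0.18 to 0.051 for Fgfr1, -0.22 to 0.12 for Fgfr3, -0.36 to 0.078 for Nudt6, -0.065 to 0.27 for Kl and -0.16 to 0.067 for Spred3. The cause of these reversals was not tested. Over the named genes, 264 values kept their direction and side of the threshold, 14 reversed, 6 newly passed, and 12 from DESeq2 had no adjusted p. The depth limits Fgf2, Fgfr4 and Klb, with at most 21 reads in a library.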
